A study of Mus musculus with 8 samples.

Results

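The transcripts described here are those of the exocrine pancreas, 31 genes for digestive enzymes, zymogen granule proteins, protease inhibitors and acinar transcription factors, read in RNA of the upper small intestine. Members were taken by gene symbol: every probe set whose only symbol in the array's annotation was one of the 31. This gave 41 probe sets for 26 genes, of 18193 genes that had such a probe set. Each gene is represented by its brightest probe set, the one with the highest mean over all mice. The other 5, Prss1, Try4, Try5, Amy2a5 and Pnlip, had no probe set of their own. Symbols of 4 of the 5 stood only in probe sets that carry several gene symbols and were not used.

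The study removed Pdx1, a homeodomain transcription factor of pancreas and duodenum, from the gut epithelium and asked which transcripts of the mature duodenum depend on it. The tissue was the 5 cm of small intestine next to the stomach outlet, from male mice aged 6 months on a diet with 4.5% fat. The 4 knockout mice were Pdx1flox/flox;VilCre: both Pdx1 alleles carried loxP sites around exon 2, and Cre was driven by a 12.4 kb villin 1 promoter fragment, so it acts in gut epithelium. The 4 control mice were Pdx1flox/flox littermates without Cre, and thus carried the same floxed alleles. Each mouse gave 1 array of whole tissue, so a level can change with the number of cells of a type or with the RNA in each cell, and these cannot be told apart. The labels used here do not say whether pancreas was trimmed from the gut. Array medians lay between 5.23 and 5.27 on the log2 scale. Pdx1 itself, on its brighter probe set, read 8.33, 8.61, 8.16 and 8.98 in controls 1 to 4 and 6.04, 5.91, 6.18 and 5.58 in knockouts 1 to 4, a log2 difference of -2.59 (adjusted p = 4.16e-04 in limma). The control and knockout labels were thus separated by the targeted transcript.

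Acinar cells of the pancreas make proenzymes, pack them into zymogen granules and release them into the duct that opens into the duodenum. The head of the pancreas lies in the curve of the duodenum. Transcription of the enzyme genes in acinar cells is driven by PTF1, a complex of the factors Ptf1a and Rbpjl, which binds an E-box (CANNTG) next to a second box (TTTCCC), with Bhlha15, also called Mist1, supporting the granule machinery. Pdx1 is known for its role in pancreas formation as well as in the duodenum.

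Promoters are shown because PTF1 is the known regulator of the enzyme genes in acinar cells. Whether PTF1 has a part in the differences between these mice was not tested. RefSeq promoter sequences of GRCm38.p6 were matched by symbol for 22 of the 26 genes. In the 250 bases before the gene start, CANNTG was found in 18 of 22 members (81.8%) and in 66.2% of all 32851 promoters. The letters TTTCCC, on either strand, were found in 6 of 22 (27.3%) and in 21.9% of all promoters. Both letters, with starts at most 30 bases apart and not overlapping, stood in 4 of 22 members (18.2%) and in 4.44% of all promoters. Those 4 were Cel, Cela1, Cpa1 and Ctrb1. The TATA box letters TATAAA, searched on the gene's own strand, stood in 4 of 22 (18.2%) and in 7.59% of all promoters. A match is a description of letters, and no binding was measured. In the printed sequences, capitals mark every match to these motifs, on either strand for TTTCCC. Cela1, Cpa1 and Ctrb1 hold the pair, and Pnliprp2, whose group difference was larger than theirs, is shown beside them. The Cela1 stretch is chr15:100687921-100688170 on the minus strand, that of Cpa1 is chr6:30638968-30639217 on the plus strand, that of Ctrb1 is chr8:111691011-111691260 on the minus strand, and that of Pnliprp2 is chr19:58759473-58759722 on the plus strand.
Cela1: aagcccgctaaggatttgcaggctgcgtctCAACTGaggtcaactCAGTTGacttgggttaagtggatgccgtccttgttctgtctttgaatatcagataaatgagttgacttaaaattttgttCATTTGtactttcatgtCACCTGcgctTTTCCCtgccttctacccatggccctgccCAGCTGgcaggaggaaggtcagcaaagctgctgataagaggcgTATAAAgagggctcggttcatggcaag
Cpa1: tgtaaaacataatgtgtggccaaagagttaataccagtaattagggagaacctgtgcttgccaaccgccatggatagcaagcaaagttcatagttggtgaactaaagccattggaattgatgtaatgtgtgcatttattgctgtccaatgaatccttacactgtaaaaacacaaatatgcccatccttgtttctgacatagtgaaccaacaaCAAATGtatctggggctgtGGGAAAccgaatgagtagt
Ctrb1: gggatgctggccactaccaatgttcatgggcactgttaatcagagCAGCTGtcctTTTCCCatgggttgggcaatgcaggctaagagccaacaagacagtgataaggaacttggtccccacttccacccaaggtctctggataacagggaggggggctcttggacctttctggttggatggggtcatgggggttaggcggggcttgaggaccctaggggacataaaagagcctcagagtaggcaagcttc
Pnliprp2: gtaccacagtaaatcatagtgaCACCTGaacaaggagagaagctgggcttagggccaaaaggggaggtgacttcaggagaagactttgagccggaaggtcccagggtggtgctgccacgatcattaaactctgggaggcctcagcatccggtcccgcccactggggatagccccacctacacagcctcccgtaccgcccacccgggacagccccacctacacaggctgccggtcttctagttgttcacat
In Cela1 and in Ctrb1 an E-box and TTTCCC are separated by 4 bases. The Pnliprp2 stretch has an E-box and no TTTCCC within these 250 bases.

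Many exocrine transcripts, though not all, were among the brightest of the whole intestinal array, in knockout and control mice alike. Of the 26 genes, 13 had a mean that placed them in the top 1% of all probe sets, and 15 had a mean of at least 12 on the log2 scale, as did 2.07% of all 18193 genes. The highest value on any array was 14.83, and Cela3b in control 4 read 14.78. Enterocyte markers were bright in every mouse as well, with Fabp1, a fatty acid-binding protein, between 14.39 and 14.60 and villin, Vil1, between 12.49 and 12.87. The acinar transcription factors Ptf1a, Rbpjl and Bhlha15 were dim by comparison with the arrays' range, with means of 5.71, 6.04 and 7.44. Means of Erp27, Serpini2, Prss3, Aqp12 and Cuzd1 were also under 10, at 5.89, 6.44, 7.35, 7.76 and 9.73. The other 18 of the 26 had a mean of at least 10, as did 9.85% of all genes.

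The second feature of the exocrine genes was their spread between mice of one group. The median within-group SD was 0.77 over the 26 genes and 0.13 over all genes. An SD of at least 0.5 was found in 21 of the 26 and in 1.57% of all genes. The spread was shared: in 24 of the 26 genes control 3 was the lowest of the 4 controls and, at the same time, knockout 3 was the highest of the 4 knockouts, an order seen in 11.8% of all genes. Knockout 3 was the highest knockout in 24 of the 26 and in 30.2% of all genes. Control 4 had the highest value of all 8 mice in 17 of the 26 (16.5% of all genes), and control 3 the lowest in 16 (18.8% of all genes). Both held for 15 of the 26 and for 5.23% of all genes. The 2 genes outside the shared order of replicates 3 were Spink1 and Rbpjl.

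**Figure D1:**
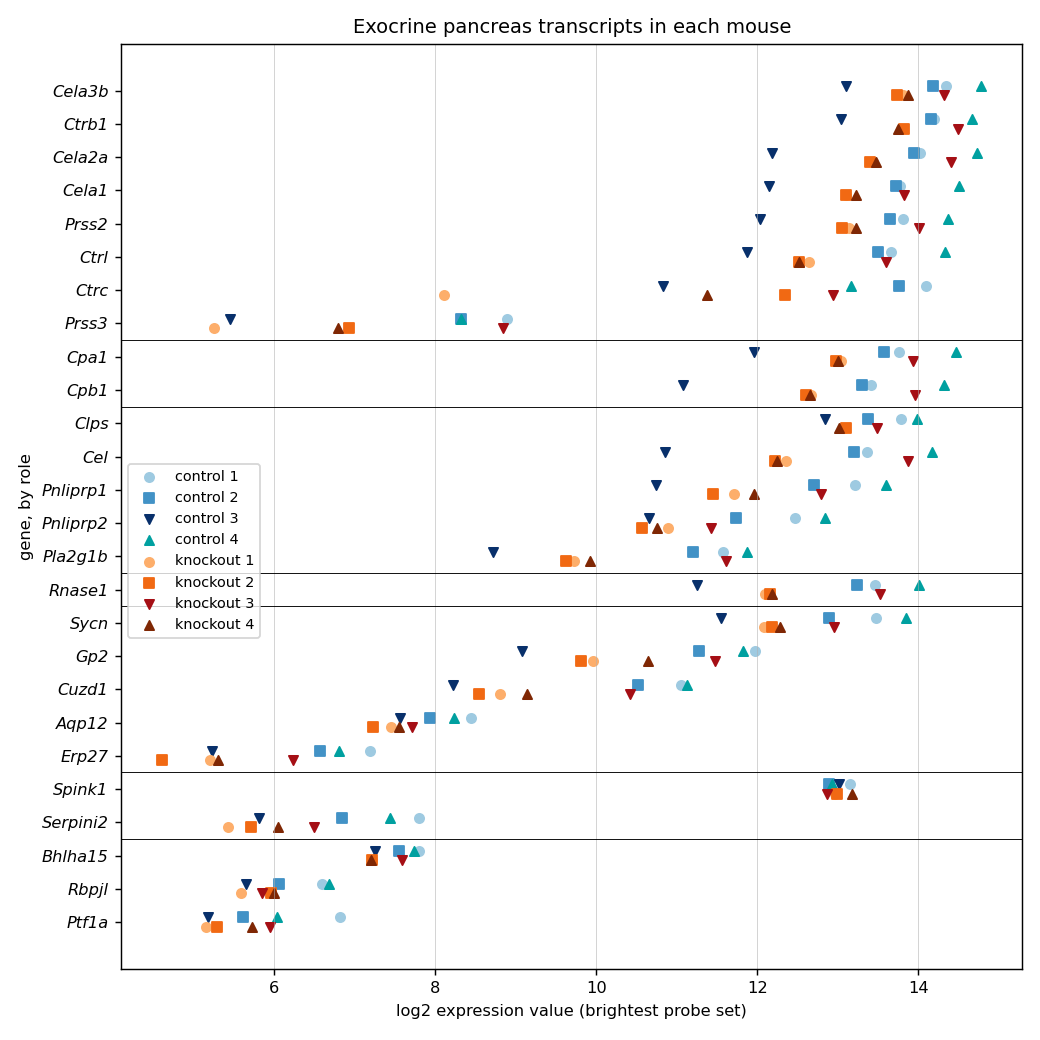
Log2 expression value (x axis) of 26 exocrine pancreas genes (y axis, grouped by role) in each of 4 control mice (blue and teal) and 4 knockout mice (orange and red), 1 point a mouse, by the brightest probe set of each gene. Control 3 (dark blue triangles pointing down) lies lowest of all 8 mice in 16 genes and control 4 (teal triangles) highest in 17, while the values of Spink1 nearly coincide.

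Trypsins and chymotrypsins digest protein, and elastases cut after small residues. Cela3b read 14.34, 14.18, 13.09 and 14.78 in controls 1 to 4 and 13.81, 13.74, 14.32 and 13.87 in knockouts 1 to 4. In this elastase gene the controls span a wider range than the knockouts and enclose all 4 of them. Ctrb1, a chymotrypsinogen, read 14.19, 14.15, 13.03 and 14.67 in controls 1 to 4 and 13.79, 13.82, 14.50 and 13.74 in knockouts 1 to 4. Cela2a read 14.01, 13.94, 12.18 and 14.73 in controls 1 to 4 and 13.43, 13.40, 14.40 and 13.47 in knockouts 1 to 4. Cela1, the third elastase, read 13.78, 13.72, 12.15 and 14.50 in controls 1 to 4 and 13.10, 13.10, 13.82 and 13.23 in knockouts 1 to 4. In all of these knockouts 1, 2 and 4 lay close together, between the lowest control and the other controls, and knockout 3 lay among the higher controls. Prss2, an anionic trypsinogen, read 13.81, 13.64, 12.03 and 14.37 in controls 1 to 4 and 13.14, 13.05, 14.01 and 13.22 in knockouts 1 to 4. Ctrl, a chymotrypsin-like protease, read 13.66, 13.50, 11.87 and 14.33 in controls 1 to 4 and 12.64, 12.52, 13.60 and 12.51 in knockouts 1 to 4. The chymotrypsin and trypsin patterns match those of the elastases in which mice are high and low, and knockout and control values overlap in each. Prss2 belongs to a family of near-identical trypsinogens and Cela3b has a close relative in Cela3a, so their probe sets may also read those relatives.

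Ctrc and Prss3 kept control 3 as the lowest control and knockout 3 as the highest knockout, but their values in knockout 1 lay further from those of the other members than in any other gene. Ctrc, chymotrypsin C, which regulates trypsinogen activation, read 14.10, 13.76, 10.83 and 13.16 in controls 1 to 4 and 8.10, 12.34, 12.93 and 11.37 in knockouts 1 to 4. Its lowest value was in knockout 1, 3.54 further below its mean over 8 mice than the median of the other 25 members lay below theirs. Knockouts 1, 2 and 4, nearly level for Cela1, thus ran from 8.10 to 12.34 for Ctrc. Prss3, a trypsinogen, read 8.89, 8.31, 5.45 and 8.32 in controls 1 to 4 and 5.25, 6.93, 8.84 and 6.78 in knockouts 1 to 4. Its departure was also largest in knockout 1, at -1.66. Both genes were highest in control 1, not control 4. Each is represented by a single probe set, so neither pattern was read a second time on these arrays.

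Carboxypeptidases remove residues from the ends of peptides. Cpa1, carboxypeptidase A1, read 13.76, 13.57, 11.96 and 14.47 in controls 1 to 4 and 13.04, 12.98, 13.93 and 13.00 in knockouts 1 to 4. Cpb1, carboxypeptidase B1, read 13.41, 13.30, 11.08 and 14.31 in controls 1 to 4 and 12.67, 12.61, 13.95 and 12.65 in knockouts 1 to 4. For Cpb1 control 4 exceeded control 3 by 9.42-fold, both mice being littermate controls. That is a far larger distance than the one between the group means, which was -0.06 on the log2 scale.

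Lipid digestion had 5 measured members. Cel, the bile salt-activated lipase, had the widest distance between control 3 and control 4 of the 26 genes, 9.89-fold, from 10.86 to 14.16. Clps, colipase, the cofactor that anchors lipase to fat droplets, read 13.78, 13.38, 12.84 and 13.99 in controls 1 to 4 and 13.07, 13.09, 13.49 and 13.01 in knockouts 1 to 4. On this probe set its within-group SD was 0.39, and 0.62 on its second probe set, where Cela3b and Ctrb1 had 0.54 and 0.55. Control 3 was its lowest control and knockout 3 its highest knockout. Pnliprp2, a lipase related to pancreatic lipase that also acts on galactolipids, read 12.47, 11.73, 10.65 and 12.83 in controls 1 to 4 and 10.89, 10.57, 11.42 and 10.75 in knockouts 1 to 4. Here knockouts 1, 2 and 4 were all close to the lowest control, and knockout 3 lay just below control 2. Pnliprp1 read between 10.74 in control 3 and 13.59 in control 4. The phospholipase Pla2g1b lay between 8.71 and 11.87 in the same mice. Rnase1, the secreted pancreatic ribonuclease, likewise read 11.24 in control 3 and 14.01 in control 4.

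Proteins of the granule and the secretory pathway followed the same mice, with control 1 rather than control 4 on top for 3 of the 5. Sycn encodes syncollin of the zymogen granule membrane and ran from 11.55 in control 3 to 13.84 in control 4. Gp2, the major granule membrane glycoprotein, which gut M cells also make, ran from 9.07 in control 3 to 11.96 in control 1. Cuzd1, a zymogen granule protein, ran from 8.22 in control 3 to 11.13 in control 4. These 3 genes span between 4.89-fold and 7.47-fold from control 3 to control 4, with Gp2 at 6.73-fold. Erp27, an endoplasmic reticulum protein, read 7.18, 6.57, 5.22 and 6.80 in controls 1 to 4 and 5.20, 4.61, 6.23 and 5.30 in knockouts 1 to 4. Aqp12, an aquaporin of acinar cells, read 8.44, 7.93, 7.56 and 8.22 in controls 1 to 4 and 7.45, 7.22, 7.71 and 7.55 in knockouts 1 to 4. Both were highest in control 1 and lowest in knockout 2.

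The 2 protease inhibitors behaved differently from each other. Spink1, which blocks trypsin and is made in gut epithelium as well as in the pancreas, read 13.15, 12.88, 13.02 and 12.93 in controls 1 to 4 and 12.96, 12.98, 12.86 and 13.17 in knockouts 1 to 4. Its within-group SD was smaller than that of 51.9% of all probe sets, and it lacked the low value of control 3 and the high values of control 4 and knockout 3. Serpini2, a serpin of acinar cells, read 7.80, 6.84, 5.81 and 7.44 in controls 1 to 4 and 5.43, 5.71, 6.49 and 6.05 in knockouts 1 to 4. The serpin had the shared order within the knockouts, and its highest value was in control 1.

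Among the transcription factors, Ptf1a read 6.82, 5.61, 5.17 and 6.03 in controls 1 to 4 and 5.15, 5.28, 5.94 and 5.72 in knockouts 1 to 4. Rbpjl read 6.59, 6.06, 5.65 and 6.68 in controls 1 to 4 and 5.58, 5.95, 5.85 and 6.00 in knockouts 1 to 4. Bhlha15, which other secretory cells such as plasma cells also express, read 7.79, 7.55, 7.25 and 7.74 in controls 1 to 4 and 7.21, 7.21, 7.58 and 7.19 in knockouts 1 to 4. In all 3 factors control 3 was the lowest control, as for the enzymes, but the distance from control 3 to control 4 was between 1.4-fold for Bhlha15 and 2.04-fold for Rbpjl. The 4 plasma cell markers measured differed in their spread over the same 8 mice. Jchain varied least, from 13.38 to 13.56. Sdc1 ran from 9.93 to 10.27, Tnfrsf17 from 6.55 to 7.07 and Mzb1 from 9.46 to 10.18. Second probe sets of Rbpjl and Bhlha15, with means of 5.46 and 4.93, gave group differences of 0.03 and 0.11, opposite in sign to the brighter ones.

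How wide the spread appeared depended on the probe set. For Cela3b, control 4 exceeded control 3 by 1.69, 2.38, 2.78 and 3.07 on the log2 scale on its 4 probe sets, and by less the brighter the probe set. Prss2 gave 2.34, 2.82, 2.39 and 2.99 from its brightest to its dimmest probe set. Colipase gave 1.15 on its brighter and 1.79 on its dimmer probe set, and syncollin 2.29 and 2.90. The same 2 RNA samples were compared in each case, so a log2 difference of these bright genes is that of the probe set named. In these 4 genes the brightest probe set, used here throughout, gave the smallest distance. Pnliprp2 went the other way, with 2.18 on its brightest and 1.26 on its second probe set, and so did Pla2g1b, with 3.15 on its brightest and 2.99 on its second. The dimmest probe sets of Pla2g1b, Erp27, Bhlha15 and Rbpjl, the brightest of them with a mean of 5.46, showed distances between -0.21 and 0.26.

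**Figure D2:**
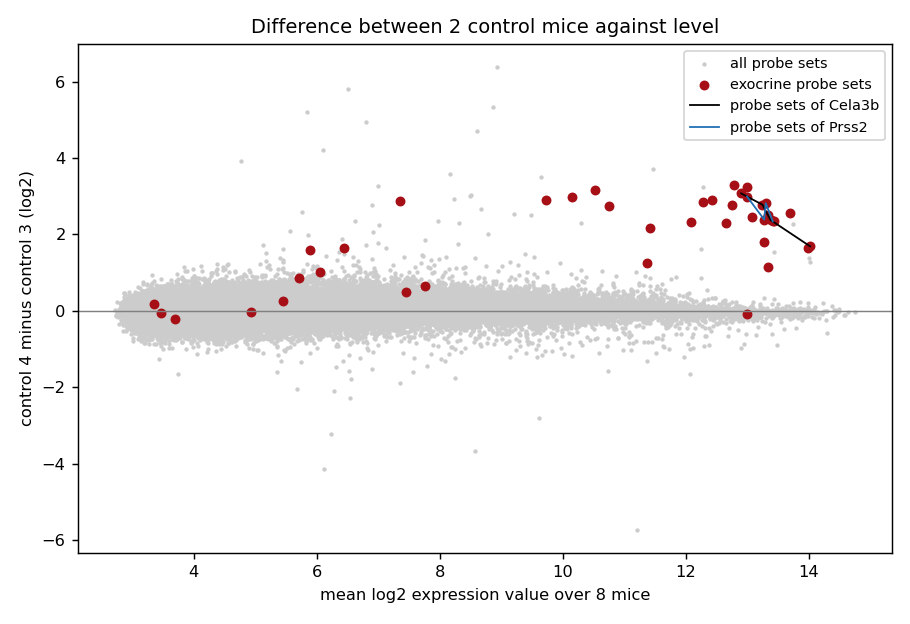
Control 4 minus control 3 (y axis, log2) against the mean log2 expression value over 8 mice (x axis) for all 45037 probe sets (grey) and the 41 exocrine probe sets (red), with lines joining the 4 probe sets of Cela3b and of Prss2. Most exocrine probe sets lie above the grey band, and the bright probe sets of Cela3b give smaller differences, down to 1.69, than its dimmest at 3.07.

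The comparison of knockout with control asked whether exocrine transcripts depended on epithelial Pdx1, and none of the 41 probe sets passed. In limma 0 of 41 had an adjusted p under 0.05, while 0.0422% of all 45037 probe sets did. At an unadjusted p under 0.05 there were 6 of the 41, all of them lower in the knockout (3.62% of all probe sets were lower at that p). In no member did the knockout values lie wholly below or wholly above the control values, as they did in 2.33% and 2.10% of all probe sets. The knockout mean was nevertheless the lower one in all 26 genes, where 48.4% of all genes had the lower mean in the knockout. The median difference was -0.45 over the 26 genes and 0.0046 over all genes. Since the members share their mouse-to-mouse order, these 26 signs are not 26 independent observations.

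The largest differences were those of Ctrc, Erp27, Serpini2 and Pnliprp2. Ctrc averaged 11.19 ± 2.16 over the 4 knockouts and 12.96 ± 1.47 over the 4 controls (mean ± SD), a log2 difference of -1.78 (standard error 1.00, adjusted p = 0.753 in limma). Erp27 averaged 5.33 ± 0.67 against 6.44 ± 0.85, a difference of -1.11 (standard error 0.42, adjusted p = 0.66 in limma). The second probe set of Erp27, with a mean of 3.69, gave 0.12, opposite in sign. For Serpini2 the means were 5.92 ± 0.46 and 6.97 ± 0.87, and the difference was -1.05 (standard error 0.38, adjusted p = 0.648 in limma). Pnliprp2 averaged 10.91 ± 0.37 against 11.92 ± 0.96, a difference of -1.01 (standard error 0.40, adjusted p = 0.676 in limma). Its second probe set gave -1.06 with an adjusted p of 0.544 in limma, the smallest of the 41. None of these differences passed after adjustment over all 45037 probe sets. Before adjustment, p in limma was 0.104 for Ctrc, 0.0236 for Erp27, 0.019 for Serpini2 and 0.0278 for Pnliprp2. The second probe set of Pnliprp2 had an unadjusted p of 0.00475 in limma. Of all probe sets, 3.62% were lower in the knockout at an unadjusted p under 0.05.

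The remaining members had smaller differences, and those of the most abundant enzymes were small beside a large error. Cela2a averaged 13.67 ± 0.49 over the 4 knockouts and 13.71 ± 1.08 over the 4 controls (mean ± SD), a difference of -0.04 (standard error 0.46, adjusted p = 0.991 in limma). For Ctrb1 the difference was -0.05, for Cpb1 -0.06, for Prss2 -0.11, for Cela3b -0.17, for Cpa1 -0.20, for Cel -0.22 and for Cela1 -0.23, each smaller than its standard error. Colipase had -0.33, Ctrl -0.52, Rnase1 -0.50, Sycn -0.56, Gp2 -0.56, Pnliprp1 -0.58, Pla2g1b -0.62 and Prss3 -0.79. Cuzd1 averaged 9.22 ± 0.83 over the knockouts and 10.23 ± 1.36 over the controls, with knockout and control mice overlapping. Aqp12, with a mean of 7.76, had -0.56 (standard error 0.17, unadjusted p = 0.00895 and adjusted p = 0.594 in limma). The transcription factors had -0.38 for Ptf1a, -0.40 for Rbpjl and -0.28 for Bhlha15. Spink1 averaged 13.00 ± 0.13 and 13.00 ± 0.12, and its difference of -0.0016 carried a standard error of 0.088.

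Single mice, knockouts as well as controls, changed the size of this difference. Cel, for example, went from -0.22 to -0.62 without knockout 3 and to 0.20 without control 4. Without control 3 the median over the 26 genes was -0.81, with 25 below 0, and 22 of the 26 had an unadjusted p under 0.05 (3.61% of all probe sets were lower at that p), but 0 of the 41 probe sets passed after adjustment (0.0444% of all did) and the lowest adjusted p was 0.274 in limma. In that fit 7 of the 26 had knockout values wholly below the control values, where 4.02% of all probe sets did. The 7 were Aqp12, Ctrc, Cuzd1, Erp27, Pnliprp2, Rbpjl and Serpini2. Control 3 was the lowest control in 25 of the 26, so leaving it out raises the control mean and lessens the overlap. Counts from settings without control 3 are thus not evidence of a difference. Without control 4 the median was -0.24, and the differences of Cel, Cela1, Cela2a, Cela3b, Cpa1, Cpb1, Ctrb1 and Prss2 were above 0, with values of 0.20, 0.10, 0.30, 0.06, 0.14, 0.37, 0.17 and 0.20. Without control 1 it was -0.27. Controls 3 and 4 were also left out together, a choice made because earlier results had shown them at the ends of the exocrine range. The median was then -0.69, 23 of the 41 probe sets had an unadjusted p under 0.05 (2.15% of all were lower at that p), and 0 of the 41 passed after adjustment (0.0266% of all did). One setting did give calls. With control 3 and knockout 3 left out together, the median was -1.13, 36 of the 41 probe sets had an unadjusted p under 0.05 (3.75% of all were lower at that p), and 6 of the 41 passed after adjustment in limma (0.0933% of all did), among them the brightest probe sets of Cuzd1, Erp27, Pla2g1b and Rnase1, all lower in the knockout. This setting was chosen after seeing the data, and it removes the lowest control and the highest knockout of most members. The choice of mice thus favours a lower knockout mean and a smaller spread, and the 6 calls are not evidence of a difference. Pnliprp2 ranged from -1.44 without control 3 to -0.71 without control 4, and Ctrc from -2.49 without control 3 to -0.75 without knockout 1.

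**Figure D3:**
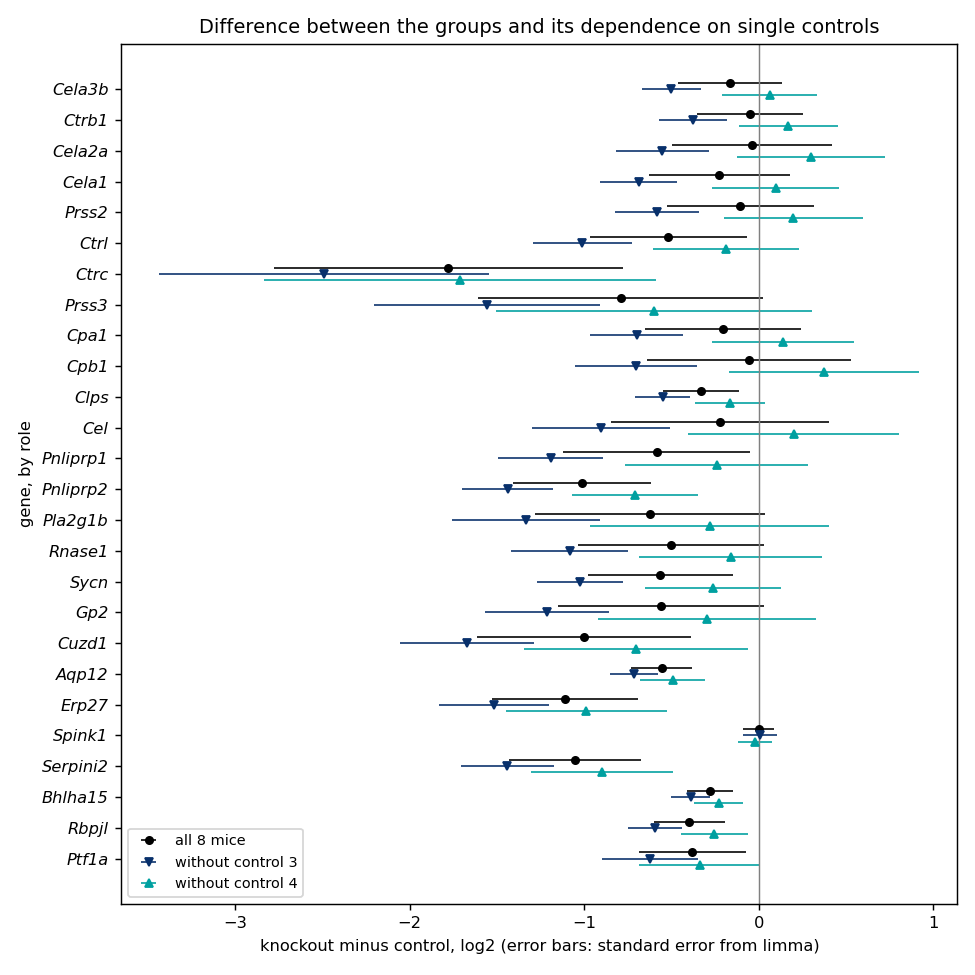
Knockout minus control on the log2 scale (x axis) for 26 exocrine pancreas genes (y axis, grouped by role), with standard errors from limma, from all 8 mice (black), without control 3 (blue) and without control 4 (teal). All 26 black points lie below 0 and none passed the test, and the bright elastase, trypsin and carboxypeptidase genes move to above 0 when control 4 is left out.

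Other genes of acinar cells came from a list of 20 with no member in it, and 17 had a probe set. The list includes genes that gut also makes, such as Reg1, and 2 of the 17 had a mean under 5. The knockout mean was lower in 15 of the 17 (48.4% of all genes), and 0 of 17 passed the test (0.066% of all genes did). The median difference of the 17 was -0.66. Control 3 was the lowest control in 14 of the 17 (30.5% of all genes), and knockout 3 the highest knockout in 12 (30.2% of all genes). Over all 8 mice, however, control 4 was highest in 5 of the 17 and control 3 lowest in 2 (16.5% and 18.8% of all genes). The exocrine counts were 17 and 16 of the 26. By their mean deviation from each gene's mean these genes were highest in control 1, at 0.79, with 0.41 in control 4, and lowest in knockout 2, at -0.63. Klk1, a kallikrein of secretory glands, read 12.63, 12.30, 11.69 and 12.57 in controls 1 to 4 and 11.23, 11.20, 11.59 and 11.51 in knockouts 1 to 4. Its knockout values lay wholly below its control values, yet the difference of -0.92 (standard error 0.19, adjusted p = 0.355 in limma) did not pass. Reg1, a secreted lectin of acinar cells and gut, had its knockouts between 13.77 and 14.12 and its controls between 14.19 and 14.28, a difference of -0.32 (standard error 0.08, adjusted p = 0.515 in limma). Gatm, an enzyme of creatine synthesis, had -0.66 (standard error 0.25, adjusted p = 0.66 in limma). The protein disulfide isomerase Pdia2, made mainly in the pancreas, read 10.95, 10.25, 7.87 and 11.37 in controls 1 to 4 and 8.78, 8.56, 10.11 and 9.20 in knockouts 1 to 4, the shared order of the enzymes.

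Islet genes were read in the same arrays and did not follow the exocrine order in every mouse. Ins2, insulin, read 9.31, 8.11, 6.62 and 13.00 in controls 1 to 4 and 7.84, 10.46, 8.06 and 8.06 in knockouts 1 to 4. Iapp, the islet peptide amylin, read 7.45, 6.15, 5.49 and 10.44 in controls 1 to 4 and 5.82, 7.76, 5.68 and 5.55 in knockouts 1 to 4. Both hormones were highest in control 4, as were most exocrine genes, but next came knockout 2, where exocrine genes were low, and knockout 3, where they were high, did not stand out. Of the 8 islet genes measured, 6 had their highest value in control 4 (16.5% of all genes). In 1 of the 8 knockout 3 was the highest knockout (30.2% of all genes). A mean under 5 was found in 4 of the 8, among them Ucn3 and G6pc2, which are in the count of 6. The group means of the 8 islet genes differed by a median of -0.28, and 0 passed the test (0.066% of all genes did).

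Apart from the islet list, markers of neighbouring tissues ranged less widely over the 8 mice than the exocrine genes. By the mean deviation described next, the list of 8 islet genes ranged more widely, from -0.63 in control 3 to 1.52 in control 4. By the median deviation it ranged less widely, from -0.43 in knockout 3 to 0.64 in control 4. The exocrine median ran from -1.23 in control 3 to 1.05 in control 4. Over the 8 mice Ins2, Iapp and Ppy spanned 6.38, 4.95 and 4.20 on the log2 scale, and Gcg 1.66. Ucn3, G6pc2, Nkx6-1 and Slc30a8, with means under 5, spanned between 0.38 and 0.79. On the mean deviation of a list from each gene's mean over the 8 mice, the exocrine genes ranged from -1.10 in control 3 to 0.96 in control 4, with 0.78 in control 1, 0.49 in knockout 3 and -0.66 in knockout 1. The 7 enterocyte markers ranged from -0.23 in control 2 to 0.12, the 10 gastric markers from -0.26 in control 1 to 0.49 in control 2. For the 3 Brunner gland markers the range was from -0.55 in knockout 3 to 0.39 in control 4. The 7 pancreatic duct markers, several of which intestinal epithelium also makes, ranged from -0.29 in knockout 1 to 0.31 in control 4. By this mean the controls ranked 4, 1, 2 and 3 from high to low in the duct and Brunner gland lists, as in the exocrine list. Control 3 stood at 0.02 in the duct list, above all 4 knockouts, and at 0.08 in the Brunner gland list, above 3 of the 4. The match did not hold for the median deviation, where the controls ranked 4, 2, 1 and 3 in the duct list. In the Brunner gland list the median gave 4, 3, 2 and 1, also the order of Tff2 and Gkn3. The 6 smooth muscle markers ranged from -0.25 in control 1 to 0.33 in knockouts 1 and 3. The 5 Paneth cell markers ranged from -0.65 in knockout 1 to 0.29, the 4 adipocyte markers from -0.54 to 0.81, the 6 liver markers from -0.32 to 0.20 and the 4 plasma cell markers from -0.18 to 0.17. Among the Paneth cell markers, Pla2g2a read 8.67 in knockout 1 and at least 12.28 in each of the other 7 mice. Some lists leaned by group: the duct markers had the lower knockout mean in 6 of 7 (median -0.32), the Brunner gland markers in 3 of 3 (median -0.50) and the gastric markers in 9 of 10 (median -0.16; 48.4% of all genes). The smooth muscle markers had the higher one in 6 of 6 (median 0.22) and the enterocyte markers in 6 of 7 (median 0.12; 51.6% of all genes). Genes of a list were read in the same mice, so these counts are not independent observations. The Brunner gland mean deviation was -0.54, 0.11, -0.55 and 0.08 in knockouts 1 to 4. That of smooth muscle was 0.33, 0.03, 0.33 and -0.16, so in both lists the lean lay mainly in knockouts 1 and 3. Car2, a carbonic anhydrase of duct and gut epithelium, had a difference of -0.54 (standard error 0.18, adjusted p = 0.618 in limma). Anpep, an aminopeptidase of the brush border, had 0.43 (standard error 0.10, adjusted p = 0.476 in limma), and Actg2, a smooth muscle actin, 0.52 (standard error 0.21, adjusted p = 0.679 in limma). None of these lists held a gene that passed. The part of attached pancreas, or of any other tissue, in the exocrine values was not tested.

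**Figure D4:**
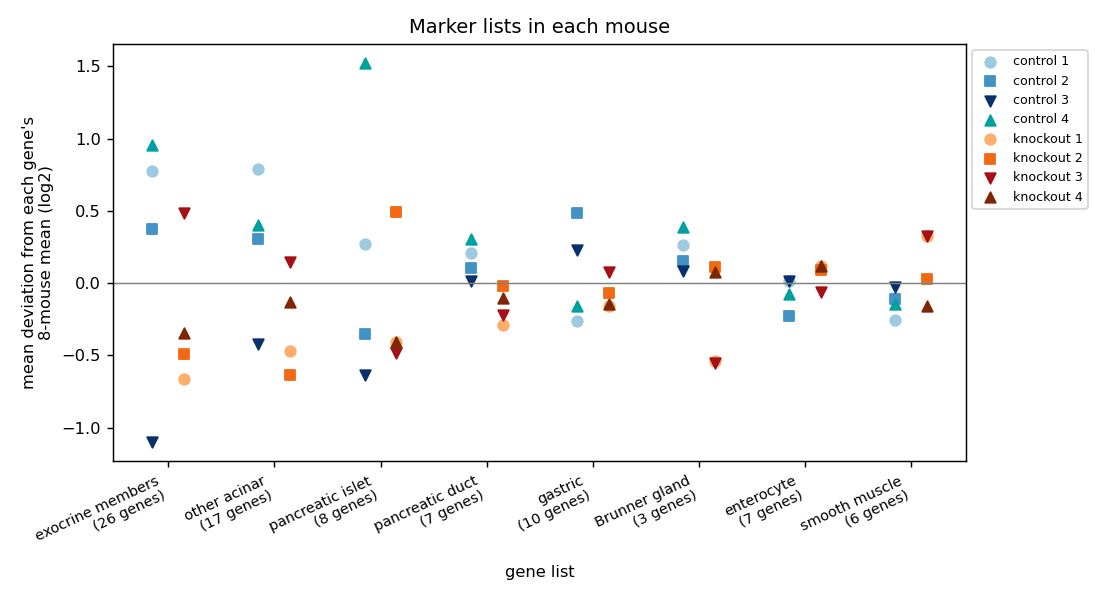
Mean deviation of each gene list from its genes' means over 8 mice (y axis, log2) for 8 lists (x axis, with the number of genes measured), 1 point for each control (blue and teal) and knockout (orange and red) mouse. The exocrine list spans -1.10 to 0.96, the islet list is highest in control 4 and then in knockout 2, and the enterocyte list stays between -0.23 and 0.12.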

How the data were processed

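RNA of the proximal small intestine of 4 knockout and 4 control mice was measured on Affymetrix arrays, 1 array a mouse. The authors deposited a table of log2 expression values; the submitters' processing notes list Partek 6.4 without saying what it did, and how background, summarisation and normalization were handled is not stated. That the scale is log2 was read off the values (2.55 to 14.83). Values carry no detection calls, and the brightest probe sets lie near the top of the scale, where differences may be understated. The number of arrays limits the precision.

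Of 45101 probe sets, 64 array controls were left out. Gene symbols were those of the platform's annotation in GEO: 34945 probe sets had 1 symbol, 932 several and 9160 none; 34741 were matched by Entrez identifier to RefSeq (GRCm38.p6), with 0 symbols changed. Knockout minus control was fitted on all 45037 probe sets with lmFit and eBayes (limma 3.58.1, R 4.3.3), two-sided, with Benjamini-Hochberg adjustment and a threshold of 0.05, with no filter, covariate or block. Groups came from the titles. The code was tested on simulated data.

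The members and lists were chosen with earlier results of these data known. Values in every mouse were given by rule for the 8 brightest members, the 4 with the largest difference, the 4 with the smallest SD at a mean of at least 5, and the 3 transcription factors; among other lists, up to 3 genes with the smallest p were named, with values or differences, for acinar genes (Klk1, Reg1, Gatm), and 1 each for duct, enterocyte and smooth muscle (Car2, Anpep, Actg2), but none for the rest by this rule; Cpa1 is among the brightest, while Prss3, Cpb1, Pdia2, Ins2, Iapp, Jchain, Fabp1, Vil1 and Pla2g2a were picked after their values were seen. Alternatives were a replicate block, repeated quantile normalization, median centring, a minimum mean of 5, values raised to 5 where lower, eBayes with trend and robust set, weights for arrays, probe sets averaged per gene, all probe sets of the members, and left-out mice; leaving out control 3 and knockout 3 together was added after seeing the data. Mzb1, Sdc1 and Tnfrsf17 were given beside Jchain so that every plasma cell marker measured is shown. Figures were drawn with matplotlib 3.10.9.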

Additional observations from a re-analysis of the deposited data

Results flagged for a closer look

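In each group of 4 mice, the mouse at the end of the range was compared with its nearest neighbour, and a mouse was taken to stand apart where that gap, as a share of the whole range, passed Dixon's critical value. Dixon's value for 4 samples was used. Of 52 gene and group combinations of the 26 genes, 11 met this, where chance flags about 1 in 20; members share their mice, so the 11 are not independent. Knockout 3 stood above the other knockouts in 10 of them, with log2 values of Bhlha15 7.58, Cel 13.87, Cela2a 14.40, Clps 13.49, Cpa1 13.93, Cpb1 13.95, Ctrb1 14.50, Ctrl 13.60, Pla2g1b 11.61 and Rnase1 13.52. Control 3 stood below the other controls for Prss3, at 5.45. The cause was not tested.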

How the results depend on the processing

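No member probe set passed the test in limma under 16 of the 17 other settings fitted. The exception, control 3 and knockout 3 left out together, was chosen after seeing the data, with mice picked by their exocrine levels, so it supports nothing: 6 of 41 passed (42 of 45037 over all probe sets), the median difference was -1.13, Erp27 was at -1.81 (adjusted p = 0.0108 in limma; 0.66 with all 8 mice) and Spink1 at 0.051. The median difference over the 26 genes stayed below 0, at -0.46 with repeated quantile normalization, -0.44 with median centring, -0.60 with array weights, -0.38 with probe sets averaged per gene and -0.69 without controls 3 and 4 together; with single mice left out it ranged from -0.81 to -0.24. At an unadjusted p under 0.05 the 6 of 41 probe sets became 32 without control 3, 23 without controls 3 and 4 and 36 without control 3 and knockout 3, and were between 2 and 10 under the other alternatives. Of the 17 genes followed singly, 7 changed sign with a mouse left out, none of them past the threshold: Cela1 (-0.69 to 0.10), Cela2a (-0.55 to 0.30), Cela3b (-0.50 to 0.062), Cpa1 (-0.70 to 0.14), Ctrb1 (-0.38 to 0.17), Prss2 (-0.58 to 0.20) and Spink1 (-0.061 to 0.050). Median centring put Spink1 at 0.0090. The cause was not tested. Counted over all member probe sets, control 4 was highest in 26 of 41, and with a mean of at least 5 in 17 of 26 genes.

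Replicate numbers are shared by the groups, but same-numbered mice did not deviate together: the correlations of their deviations over all probe sets lay between -0.18 and 0.076, and no paired reading was made. With the replicate block the median difference was -0.45, 0 member probe sets passed, and the count over all probe sets went from 19 to 24.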
